A study of Homo sapiens with 2 samples.

Results

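Genes of the TRIM (tripartite motif) family with a numbered name were read on Affymetrix arrays of the lung cancer cell lines HCC4006 and HCC4006ER. A gene was a member if a probe set with 1 gene symbol carried a symbol made of TRIM and a number, and its brightest probe set, by the mean log2 signal of both arrays, stood for it. This gave 55 members of 19775 genes, out of 67 numbered TRIM genes in the RefSeq gene table; the other 12 were not analysed here, among them TRIM34 and TRIM39, whose probe sets carry several symbols, and TRIM23.

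TRIM proteins are mostly ubiquitin ligases, which join the small protein ubiquitin to other proteins and so mark them for degradation or alter their activity. The name stands for a RING finger, which recruits the ubiquitin-carrying enzyme, followed by B-box zinc fingers and a coiled coil through which the proteins pair. The end of the protein differs between subfamilies and sets what is bound: a PRY-SPRY domain in most, and a PHD finger with a bromodomain, NHL repeats or other folds in the rest. Many members take part in the defence against viruses, and others repress transcription, hold microtubules or turn over muscle proteins.

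HCC4006 is a human NSCLC line with a deletion in EGFR exon 19 and is erlotinib sensitive. HCC4006ER was selected from it by growth in rising erlotinib concentrations over months, carries the same deletion, is labelled erlotinib resistant with an EMT phenotype, and was used as a bulk population and not as a single clone. Both lines grew for 48 hours in RPMI medium with 10% serum and no further treatment, and equal parts of 3 RNA preparations per line were mixed and hybridized to 1 array. With 1 array per cell line no test can be made, so every difference below is a value of these 2 arrays, and the log2 fold is log2 of the MAS5 signal in HCC4006ER divided by that in HCC4006. Below, HCC4006 and HCC4006ER name the arrays that carry these labels. In RNA of a bulk population, fewer cells with a transcript and less of it per cell cannot be told apart. Signals of different probe sets were not compared as levels of transcript.

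Background was set by 127 probe sets of olfactory and bitter taste receptors, whose 95th percentile was 96.2 in HCC4006 and 91.6 in HCC4006ER. Dim signals were raised to this level before the fold was taken, which makes such a fold a lower bound, and a gene below it in both lines has no fold. All 5 epithelial markers (EPCAM, CDH1 and the keratins KRT8, KRT18 and KRT19) were above background on both arrays and lay within 1.5-fold. In an EMT, epithelial cells typically lose E-cadherin and gain mesenchymal proteins, and the arrays went against the EMT label of HCC4006ER in the first and not in the second. E-cadherin (CDH1) was not lower in HCC4006ER, with signals of 10469 and 11041 and a log2 fold of 0.08, and EPCAM had a log2 fold of 0.07. ZEB1, a repressor of E-cadherin, was under background on both arrays at 42.5 and 53.1 in the probe set standing for it. Any other probe set of these genes was not read. The study itself reports, from its microarrays, higher ZEB1 and a loss of E-cadherin in HCC4006ER. It also reports both changes by quantitative RT-PCR and at the protein level, which do not depend on these arrays. Vimentin (VIM), N-cadherin (CDH2) and fibronectin (FN1) were 1.53-fold, 2.05-fold and 1.66-fold higher in HCC4006ER. Every direction given for a TRIM gene therefore rests on the array labels, and whether the array labelled HCC4006ER holds RNA of cells with the labelled phenotype was not tested. At least 1 signal was above background for 2 of 8 fibroblast, 1 of 5 leukocyte, 1 of 4 endothelial and 0 of 7 striated muscle markers. The fibroblast signals were those of COL1A1, 1.63-fold higher in HCC4006ER, and THY1. The endothelial signal was that of PECAM1, at 244 in HCC4006 and 229 in HCC4006ER. The leukocyte signal was that of CD3E, at 98.0 in HCC4006 and under background in HCC4006ER. LUM, DCN, PTPRC, VWF and CDH5 were under background in both lines. Both samples were cell line cultures and not tissue, so these signals were not read as fibroblasts, leukocytes or endothelial cells in the samples. Probe sets of the same gene that were above background on both arrays differed in log2 fold with a pooled SD of 0.27 over 5264 genes, and of 0.41 over the 19 TRIM genes with several such probe sets. This SD covers neither the spread between arrays nor that between cultures.

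Of the 55 TRIM genes, 40 were above background on at least 1 array and 38 of these on both. Past 1.5-fold, 6 of the 40 were lower in HCC4006ER (TRIM61, TRIM21, TRIM44, TRIM69, TRIM38 and TRIM41) and 2 were higher (TRIM8 and TRIM55), while 32 lay within 1.5-fold. These 8 genes are 20% of the 40, and the background share over all 11896 genes above background was 19.1%. By direction, 15% of the TRIM genes were lower against 11.2% of all genes, and 5% were higher against 7.99%. The family as a whole therefore passed the threshold about as often as any gene did. At 2-fold, TRIM61, TRIM21, TRIM44 and TRIM69 remained, 4 of 40 genes beside a background of 5.94%. When the medians of the arrays were made equal, which moved every log2 fold up by 0.14, TRIM2 and TRIM25 joined the higher genes, so that 4 TRIM genes were higher and 6 lower, and 1475 of all genes were higher and 880 lower against 950 and 1328 without it.

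The median log2 fold of the 40 genes was -0.13 and that of all genes above background was -0.04, but with equal array medians the TRIM median was 0.00 and that of all genes 0.10. Log2 folds that lay below 0 by less than the shift, 0.136 before rounding to 0.14, turned positive there. The SD of the log2 fold was 0.51 over the TRIM genes and 0.54 over all genes above background. Below 0 lay 26 of the 40 TRIM genes, or 65%, beside 54.4% of all genes above background. The widest difference in the family was that of TRIM61, and 106 genes of the 11896 had a lower log2 fold than it.

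**Figure D1:**
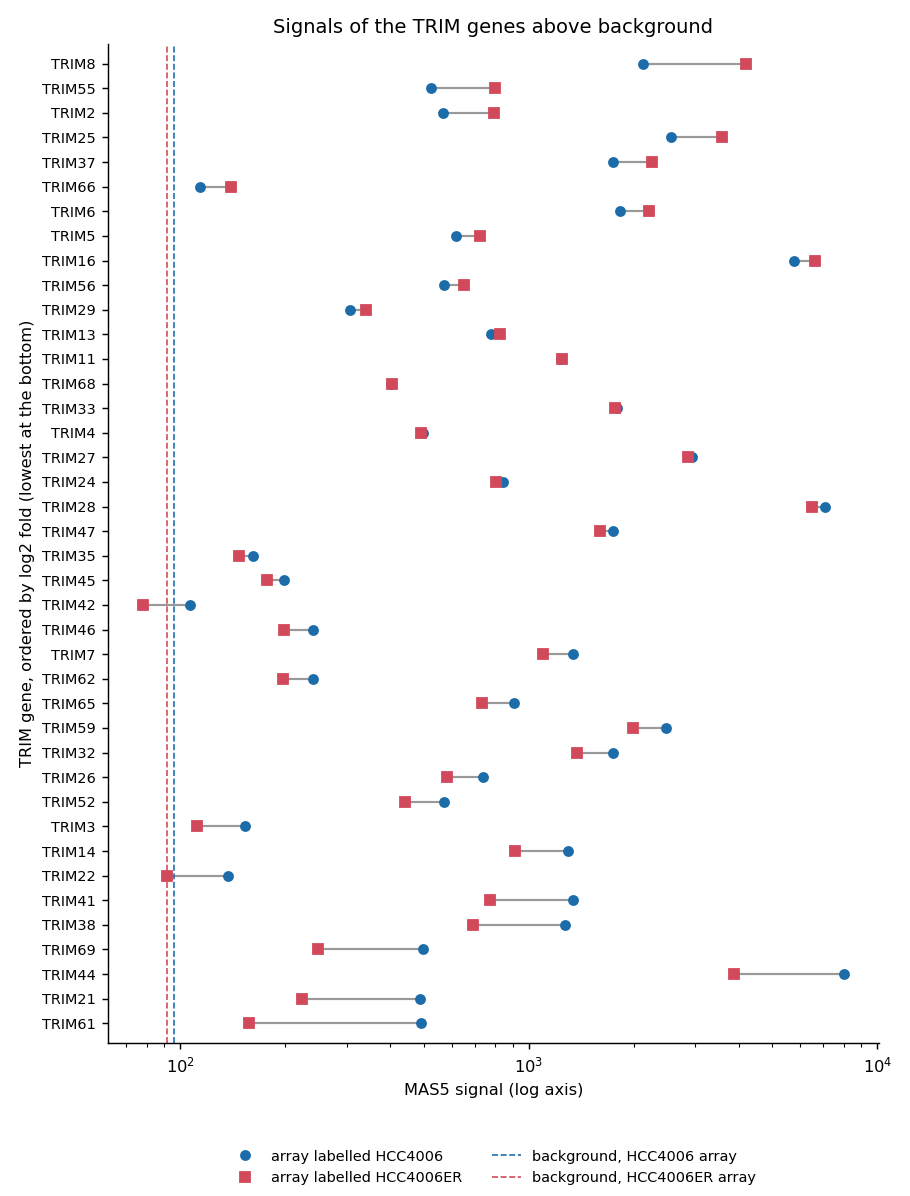
MAS5 signal on a log axis for the 40 TRIM genes above background, with circles for HCC4006, squares for HCC4006ER and dashed lines at the background levels of 96.2 and 91.6. Genes are ordered by log2 fold, from TRIM61 at -1.64 at the bottom to TRIM8 at 0.98 at the top, and TRIM22 and TRIM42 have their HCC4006ER point under the background level.

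Among the 6 lower genes, TRIM61 read 491 in HCC4006 and 158 in HCC4006ER, 3.11-fold lower. Its second probe set read 276 and 85.9, the latter under background, which made it at least 3.01-fold lower. TRIM61 belongs to the members with no known domain after the coiled coil, and both of its probe sets were lower by a like amount, the second as a bound.

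TRIM21, the cytosolic antibody receptor also known as the autoantigen Ro52, read 486 in HCC4006 and 223 in HCC4006ER in its 1 probe set, 2.18-fold lower. TRIM38, a regulator of Toll-like receptor and TNF signaling, read 1267 and 690, 1.84-fold lower. Its 3 other probe sets were all above background on both arrays and had log2 folds of -0.58, -0.57 and -0.01. None of these 3 reached 1.5-fold alone, so the call of TRIM38 rests on its probe set with the highest mean signal.

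TRIM69, a PRY-SPRY protein, read 497 in HCC4006 and 248 in HCC4006ER, 2.0-fold lower, while another probe set above background read 196 and 168 with a log2 fold of -0.22. The pair pointed the same way and differed by more than the SD between probe sets. TRIM41, a ligase for protein kinase C, had 1 probe set, at 1342 and 776, 1.73-fold lower.

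TRIM44 has no RING finger and carries instead a zinc finger of the kind found in ubiquitin proteases. It read 7996 in HCC4006 and 3874 in HCC4006ER, 2.06-fold lower. A second bright probe set read 5221 and 2650, 1.97-fold lower, so both gave nearly the same fold and the remaining one was under background on both arrays.

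On the higher side, TRIM8, a modulator of NF-κB signaling, read 2129 in HCC4006 and 4186 in HCC4006ER, 1.97-fold higher. Its 2 other probe sets above background were also past 1.5-fold, at 1661 and 3138 (1.89-fold) and at 161 and 263 (1.63-fold). A further 2 probe sets of TRIM8 lay under background on both arrays at 26.9 and 9.59 and at 12.8 and 1.89. Averaged with these dim probe sets, the log2 fold of TRIM8 was -0.33, so its direction holds only for the probe sets above background.

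TRIM55, known as MuRF2 and as a microtubule-bound ligase of striated muscle, read 525 in HCC4006 and 802 in HCC4006ER, 1.53-fold higher. A second probe set read 207 and 464, 2.24-fold higher. Its sarcomeric relatives TRIM63 (MuRF1, at 4.46 and 4.12) and TRIM54 (MuRF3, at 24.7 and 3.53) were under background on both arrays, and so were all 7 striated muscle markers, among them DES and ACTA1, with signals of 5.09 to 56.6. TRIM55 was thus the only member of the COS group above background.

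**Figure D2:**
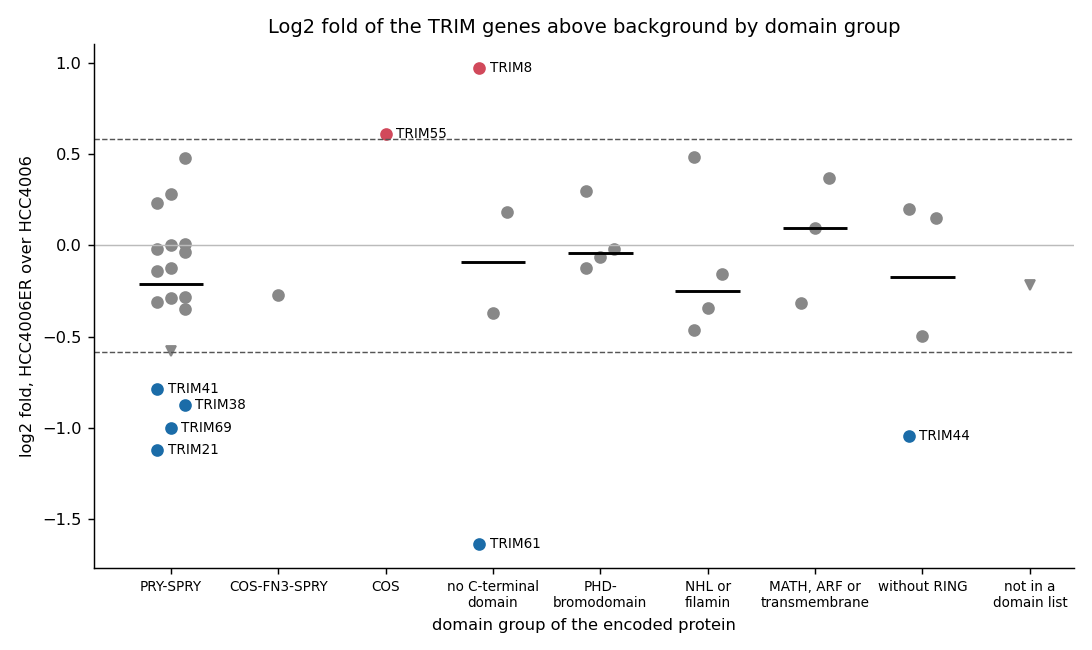
Log2 fold of the 40 TRIM genes above background by domain group, with 1 point per gene, triangles for the 2 genes whose fold is a bound, a bar at the median of groups of 3 or more, and dashed lines at 1.5-fold. Named points are the 8 genes past 1.5-fold, and 4 of the 6 lower ones stand in the PRY-SPRY group.

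By domain, the PRY-SPRY group was the largest, with 24 members measured and 18 above background. Of these 18, 4 were lower past 1.5-fold (TRIM21, TRIM38, TRIM41 and TRIM69), 0 were higher and 14 lay within 1.5-fold, with a group median of -0.21. The share that was lower, 22.2%, stood beside 11.2% of all genes and rests on 4 genes. The domain groups do not overlap. TRIM14 and TRIM16 were placed in the group without a RING finger and TRIM51 in no group. They are therefore not counted in the PRY-SPRY group, whatever domain they end in. TRIM27, which was found as a fusion partner of RET, read 2942 in HCC4006 and 2867 in HCC4006ER and had a log2 fold of -0.04.

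The 4 PHD-bromodomain members, which regulate transcription, all lay within 1.5-fold. TRIM28 (KAP1), the corepressor recruited by KRAB zinc finger proteins, read 7076 in HCC4006 and 6493 in HCC4006ER, a log2 fold of -0.12. TRIM24 read 844 and 807 (log2 fold -0.07), and TRIM66 read 114 and 140 (log2 fold 0.30). TRIM33, which modulates SMAD4 in TGF-β signaling, read 1787 and 1762 (log2 fold -0.02), with other probe sets at -0.27 and 0.42 on either side of 0.

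The partners of TRIM28 in silencing were read from a list of 9, of which 8 lay within 1.5-fold and 1 was lower. This is 11.1% lower beside 11.2% of all genes, so the list passed about as often as any gene did. The lower gene was SETDB1, the histone H3 lysine 9 methyltransferase that TRIM28 recruits, at 787 in HCC4006 and 520 in HCC4006ER, 1.51-fold lower. With equal array medians it no longer passed, and 0 of the 9 did.

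In the group of 4 members listed as lacking a RING finger, TRIM44 alone passed 1.5-fold, which is 25% lower beside 11.2% of all genes. TRIM16, a protein of keratinocytes with a near copy in the gene TRIM16L whose transcripts its 1 probe set may also bind, read 5781 in HCC4006 and 6640 in HCC4006ER, a log2 fold of 0.20. TRIM29, a basal epithelial protein, read 307 and 341 in its 1 probe set above background, a log2 fold of 0.15. Its 2 other probe sets were under background on both arrays, at 90.4 and 52.3 and at 34.1 and 12.5. Of 6 basal epithelial genes above background, the keratin KRT5 was at least 2.97-fold higher and 5 lay within 1.5-fold. This is 16.7% higher beside 7.99% of all genes and rests on 1 gene.

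The NHL or filamin group had 4 members above background, all within 1.5-fold. TRIM2, a ligase for the neurofilament light chain, read 566 in HCC4006 and 792 in HCC4006ER, a log2 fold of 0.48 that was the highest among the genes within 1.5-fold. Its 2 other probe sets above background had log2 folds of 0.62 and 0.97, both past 1.5-fold, so all 3 were higher in HCC4006ER. TRIM37, a MATH-domain ligase that limits centriole assembly, read 1743 and 2252 (log2 fold 0.37), and the membrane-anchored TRIM59 read 2474 and 1989 (log2 fold -0.32).

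The 15 remaining members above background had log2 folds of -0.46 to 0.15. They were TRIM3, TRIM7, TRIM11, TRIM13, TRIM29, TRIM32, TRIM35, TRIM42, TRIM45, TRIM46, TRIM47, TRIM52, TRIM62, TRIM65 and TRIM68. The lowest was TRIM3 and the highest TRIM29, and TRIM42, at 107 and 78.4, was above background only in HCC4006.

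Family members known under other names were read beside them. MID1, a microtubule-bound ligase mutated in Opitz syndrome, read 1383 in HCC4006 and 2096 in HCC4006ER, 1.52-fold higher. PML, the organizer of nuclear bodies, read 972 and 734 (log2 fold -0.40), and of 7 such relatives 4 were above background, with 1 higher and 0 lower. The share that was higher, 25%, stood beside 7.99% of all genes and rests on 1 gene, and 11.2% of all genes were lower. Of a list of 11 E1 and E2 enzymes, the kinds that feed ligases with ubiquitin, 6 were measured and the rest were not read. All 6 lay within 1.5-fold, with log2 folds of -0.14 to 0.19, among them UBE2N at 8690 and 9930.

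Probe sets of the same TRIM gene did not always point the same way. Of 19 TRIM genes with at least 2 probe sets above background on both arrays, 12 had all of them in 1 direction. TRIM4 was the 1 gene with probe sets past 1.5-fold in both directions: the probe set standing for it read 498 in HCC4006 and 490 in HCC4006ER, a second read 681 and 257 (2.65-fold lower) and the last 192 and 371 (1.93-fold higher). The fold of TRIM4 thus depended on the probe set taken. TRIM56, which regulates the STING pathway, read 572 and 651 in 1 probe set and 455 and 320 in the other, with log2 folds of 0.19 and -0.51.

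**Figure D3:**
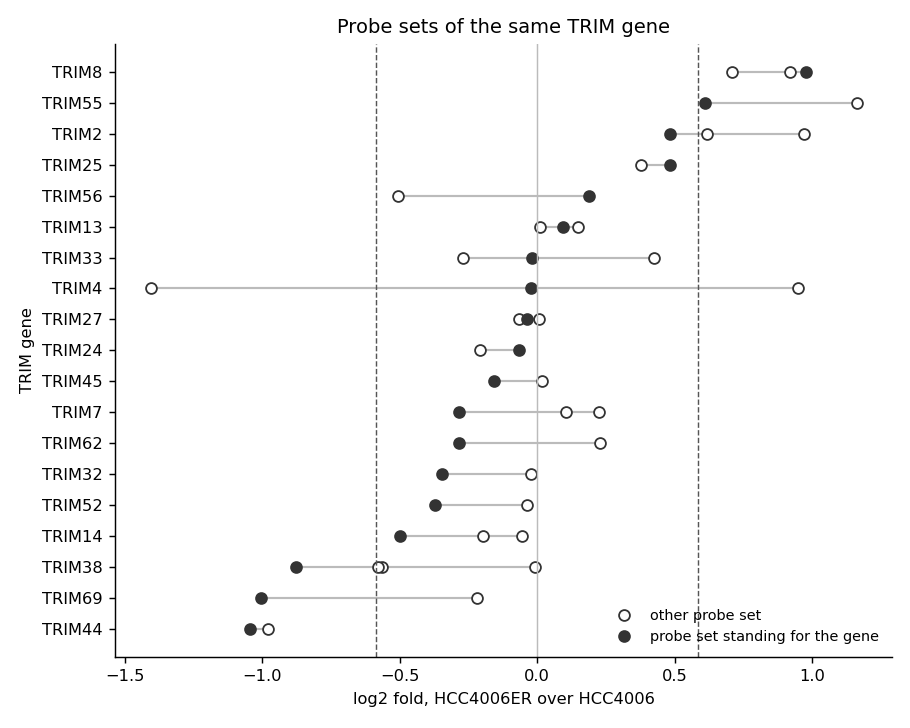
Log2 fold of each probe set above background on both arrays for the 19 TRIM genes with at least 2 of them; filled points are the probe sets standing for the gene, open points the others, and dashed lines mark 1.5-fold. The 2 probe sets of TRIM44 and the 3 of TRIM8 lie close together, and those of TRIM4 run from -1.41 to 0.95.

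The interferon and antiviral members were a list of 10, of which 9 were measured and all 9 were above background on at least 1 array. TRIM21 and TRIM38 were lower past 1.5-fold, 0 were higher and 7 lay within it, which is 22.2% lower beside 11.2% of all genes. TRIM22, an interferon-induced antiviral protein, read 137 in HCC4006 and 91.4 in HCC4006ER, just under background, and its bound of -0.58 fell just inside 1.5-fold. TRIM14, an adaptor at mitochondria in RNA sensing, read 1291 and 914, with log2 folds of -0.50, -0.20 and -0.05 in its 3 probe sets above background. TRIM26 read 738 and 580, a log2 fold of -0.35.

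Of the other 4, TRIM25, TRIM6 and TRIM5 had log2 folds above 0 without reaching 1.5-fold. TRIM25, the ligase that acts on the RNA sensor RIG-I, read 2560 in HCC4006 and 3577 in HCC4006ER, with log2 folds of 0.48 and 0.38 in its 2 probe sets. TRIM6 read 1820 and 2217 (log2 fold 0.28), and TRIM5, which binds retroviral capsids, read 617 and 725 (log2 fold 0.23). The fourth was TRIM56, whose probe sets lay on either side of 0, so that its direction is not set. The median log2 fold of the 9 was -0.35, and that of the 31 other TRIM genes above background was -0.13.

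Interferon-stimulated genes are known for a promoter element with the core GAAANNGAAA, to which proteins of the IRF family bind. This core was searched on both strands, as GAAANNGAAA and TTTCNNTTTC, in RefSeq promoter windows of GRCh38.p14 that run from 250 bases before to 50 bases after a gene start, with overlapping matches counted. It stood in 3.57% of all 35116 windows, and 4.38% of the 27305 genes with a window held it. Windows were at hand for 43 of the 55 TRIM genes, 28 of them above background. Of the 43, 8 held the core, all of them above background, in 8 of 58 windows or 13.8%. Of 14 interferon-stimulated genes with a window, 12 held it. The 30 bases around the core are shown for the 8 TRIM genes so that the sites can be set beside the folds, each on the strand of its gene from 5′ to 3′, with capitals for the core:
TRIM21 (chr11:4393663-4393692, minus strand): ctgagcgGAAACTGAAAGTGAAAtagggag
TRIM44 (chr11:35662730-35662759, plus strand): tcctgacgggGAAAGGGAAAgtggaaccgg
TRIM69 (chr15:44736456-44736485, plus strand): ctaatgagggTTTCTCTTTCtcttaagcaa
TRIM14 (chr9:98119229-98119258, minus strand): acggccgaggTTTCGGTTTCccttgggagc
TRIM26 (chr6:30213578-30213607, minus strand): cgcctgaTTTCAGTTTCCATTTCgctgccc
TRIM16 (chr17:15683012-15683041, minus strand): acagaggtaaGAAATAGAAAtaaagggtcc
TRIM5 (chr11:5685082-5685111, minus strand): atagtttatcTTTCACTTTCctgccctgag
TRIM2 (chr4:153151936-153151965, plus strand): aataaatagaGAAAAGGAAAtaagccgaag

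In the order shown the log2 folds of these genes were -1.12, -1.05, -1.0, -0.50, -0.35, 0.20, 0.23 and 0.48. TRIM21, TRIM44 and TRIM69, all lower past 1.5-fold, held the core, and so did 3 genes with a log2 fold above 0. The other genes lower past 1.5-fold either lacked the core or had no window. TRIM21 and TRIM26 held 2 overlapping matches each, and the match of TRIM21 began 18 bases after the gene start while those of TRIM5 and TRIM14 began 27 and 26 bases before it. A match is a run of letters and not a measured binding site.

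The interferon-stimulated genes themselves were lower as a list. Of 18, all above background, 12 were lower past 1.5-fold, 0 were higher and 6 lay within it. This is 66.7% lower beside 11.2% of all genes, and the median log2 fold was -1.09 beside -0.04. IFI44 read 1974 in HCC4006 and 339 in HCC4006ER (5.83-fold lower), the antiviral GTPase MX1 807 and 152 (5.30-fold lower), and IFI44L was at least 5.47-fold lower. GBP1, with a log2 fold of 0.39, was the only gene of the 18 above 0.

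Sensors and signal transducers around the TRIM ligases went both ways, with 4 of 14 lower, 1 higher and 9 within 1.5-fold, or 28.6% lower and 7.14% higher beside 11.2% and 7.99% of all genes. IRF9 read 1767 in HCC4006 and 491 in HCC4006ER, 3.60-fold lower. STING1, a substrate reported for several TRIM ligases, read 939 and 266, 3.54-fold lower, and the RNA sensors RIGI and IFIH1 were 1.65-fold and 1.55-fold lower, but the last pair lay within 1.5-fold with equal array medians. The DNA sensor CGAS was 1.80-fold higher. The adaptor MAVS, with a log2 fold of 0.38, and TBK1, IRF3 and JAK1 lay within 1.5-fold.

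**Figure D4:**
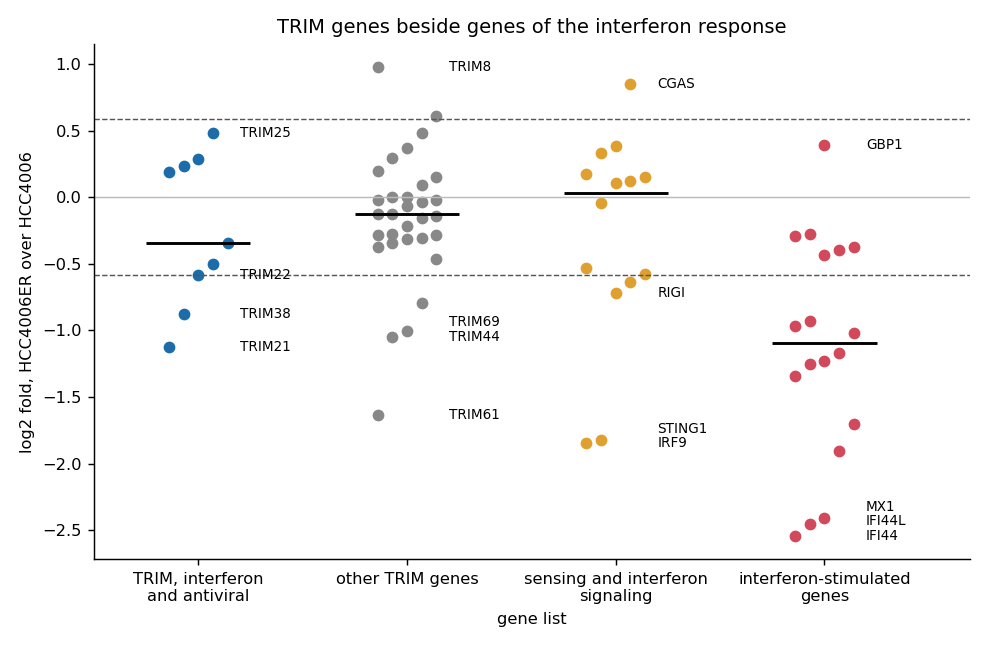
Log2 fold of the 9 interferon and antiviral TRIM genes, the 31 other TRIM genes above background, 14 genes of nucleic acid sensing and interferon signaling and 18 interferon-stimulated genes, with 1 point per gene, a bar at the median and dashed lines at 1.5-fold. The medians are -0.35, -0.13, 0.03 and -1.09, and the lowest TRIM gene, TRIM61 at -1.64, lies above the lowest interferon-stimulated gene at -2.54.

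Members that neighbour each other in the RefSeq gene order did not all have like folds. TRIM5 and TRIM6 had log2 folds of 0.23 and 0.28, TRIM47 and TRIM65 of -0.13 and -0.31, and TRIM7 and TRIM41 of -0.28 and -0.79. In the run of TRIM31, TRIM40, TRIM10, TRIM15 and TRIM26, TRIM26 was the only gene above background.

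The 15 TRIM genes under background on both arrays had signals of 2.68 to 95. Several are known from other tissues: TRIM54, TRIM63 and TRIM72 from muscle, TRIM9 and TRIM67 from neurons, TRIM10 and TRIM58 from red cell precursors, TRIM50 from the stomach and TRIM71 from embryonic stem cells. The others were TRIM15, TRIM17, TRIM31, TRIM36, TRIM40 and TRIM51. TRIM15 came nearest to the level, at 95 in HCC4006 and 24.8 in HCC4006ER. For TRIM58, the probe set standing for the gene read 57.5 and 6.53, but a second probe set, singled out after its values were seen, read 188 and 1.08 and would be at least 2.06-fold lower.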

How the data were processed

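Total RNA of both cell lines was hybridized to Affymetrix HG-U133 arrays. The authors deposited 1 MAS5 signal intensity per probe set on a linear scale, without detection calls (GCOS 1.4 is named in the submitters' processing notes), scaled to a mean of about 500.1 on each array with the extreme 2% on either side left out, for 54675 probe sets. The methods state 1.5-fold as threshold. Each cell line was 1 group with 1 array, which limits the precision of every value.

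GEO's annotation of the platform named 1 gene symbol for 41097 probe sets. Symbols were updated by gene identifier through RefSeq (GRCh38.p14), and all 55 TRIM symbols matched. The 55 genes had 128 probe sets, and 13 further probe sets that join a TRIM symbol with another were left out. Probe sets ending in _s_at or _x_at can bind several transcripts.

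The members, gene lists and rules were chosen with earlier results of these data known. Named were all members past 1.5-fold, the 10 with the highest mean signal, the PHD-bromodomain and the interferon members above background, members whose probe sets disagreed past 1.5-fold, and those nearest the threshold. Nearest inside it, 1 in each direction, were TRIM2 (higher) and TRIM22 (lower). Of each pathway list, up to 4 genes with the largest fold past 1.5-fold and those in the opposite direction were named. TRIM29, which also stands in a supplementary table of the study, TRIM58 and members named only with a range or for comparison stand outside this rule and were chosen after their values were seen. The genes read against the EMT label were also chosen so. Alternatives were other scalings, probe set choices, background levels, filters and a 2-fold threshold. The gene step was run on simulated data with 2-fold changes in genes well above background. The noise there was smaller than the SD between probe sets, so this checks the code and not the 1.5-fold calls of dim genes. The work ran in Python 3.11.15 with pandas 2.3.3, numpy 2.4.6, matplotlib 3.10.9 and scipy 1.17.1.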

Additional observations from a re-analysis of the deposited data

How the results depend on the processing

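The 6 lower and 2 higher TRIM genes were the same 8 genes with quantile normalization, with the measured ratio and with the background at the 90th or 99th percentile. With equal array medians TRIM2 and TRIM25 joined them, so that 4 were higher. With the mean over all probe sets of a gene 4 were also higher, but not the same 4. TRIM8 and TRIM38 dropped out there and TRIM5, TRIM13 and TRIM33 joined. With the probe set whose absolute fold was largest 1 was higher, and at 2-fold 0 were. The former lost TRIM8 and TRIM69 and gained TRIM4 and TRIM58. Without _s_at and _x_at probe sets, TRIM8, TRIM38 and TRIM41 dropped out and TRIM4 joined. With all 55 members measured, dim ones included, 5 were higher and 11 lower, and of all genes measured 2574 and 4550, or 13.0% and 23.0%. At 2-fold, 283 and 424 of all genes were higher and lower, or 2.38% and 3.56%. With the mean over all probe sets, 8.03% of all genes were higher and 10.6% lower. With the largest absolute fold these shares were 12.8% and 15.5%, and without _s_at and _x_at probe sets 8.75% and 11.1%. The other counts of lower TRIM genes ran from 4 to 7, and the TRIM median from -0.32 to 0.00. Equal array medians gave 1 higher gene instead of 0 in the PRY-SPRY, the NHL or filamin and the interferon and antiviral groups, 2 lower instead of 4 in the sensing and signaling list, and 0 lower instead of 1 among TRIM28 partners. Of the 8 genes past 1.5-fold, TRIM8 alone changed sign, at -0.33 with the mean over all probe sets. Over 25 named TRIM genes and 5 alternatives, 93 values moved by less than the 0.27 SD between probe sets, 11 by more without a called gene changing sign, 1 was that of TRIM8, and 20 could not be had because the probe set taken was under background or none was left. No paired analysis was possible because each cell line has 1 array, and no replicate could be left out.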
